A study of Mus musculus with 6 samples.

Results

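De novo nucleotide synthesis is represented here by 10 enzyme genes, chosen by name: Ppat, Gart, Pfas, Paics, Adsl, Atic and Impdh2 for purines, and Cad, Umps and Dhodh for pyrimidines. These are 10 of the 31017 genes in the table of read counts, and each of the 10 was among the 14268 genes with enough counts to be tested. The cells were mouse Th17 cells, helper T cells that make interleukin 17, differentiated in vitro. The control group had the genotype WT and the other group the genotype KO, described as deficient in RTF1, a nuclear protein that works with elongating RNA polymerase II; each group had 3 libraries. The labels gave neither the allele, any Cre driver, the age of the mice nor whether the cultures came from separate animals. P-values therefore measure only the spread between these libraries, and how much of it is technical is not known.

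Cells build purines stepwise on a ribose phosphate donor, PRPP, until the ring of inosine monophosphate (IMP) is complete, and IMP is then turned into AMP or GMP. Pyrimidines are built in the opposite order, the ring first and the ribose phosphate afterwards, ending in UMP. Resting lymphocytes live largely on recycled bases and nucleosides, while activated T cells depend on new synthesis to copy their DNA and to make RNA. Inhibitors of this synthesis are in clinical use against lymphocyte proliferation, among them mycophenolate, which acts on IMP dehydrogenase, and leflunomide, whose active form acts on dihydroorotate dehydrogenase.

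Total counts per library ranged from 16489813 to 51271226. Rtf1 was lower in every KO library (45.3, 30.4 and 26.2 CPM, CPM being library-scaled counts with TMM factors) than in any control library (94.0, 91.2 and 88.3 CPM), with a log2 fold change of −1.42 (edgeR, SE 0.191, adjusted p = 0.000755). Both libraries numbered 3 stood apart by Y-linked genes: 11376 counts over 4 such genes in control replicate 3 and 5147 in KO replicate 3, against 1 to 3 counts in each of the others. Xist, a transcript of female cells, had 5 and 1 counts in these libraries, against 14668 to 28176 in the others. By these genes number 3 was male and the other numbers female, so neither group came from a single animal. Results are therefore also given without both libraries numbered 3 where this changed a call. The Th17 label was checked against a list of marker genes. The cytokine genes Il17a and Il17f were detected at mean levels of 292 and 1231 CPM in control and of 92.8 and 507 CPM in KO, lower in KO in both cases (edgeR adjusted p = 0.0125 and 0.0144). Summed levels of 5 B cell markers stayed between 1.24 and 3.09 CPM in all libraries, summed erythroid markers between 0 and 0.0801 CPM, and summed fibroblast markers between 0.107 and 0.797 CPM. Summed CD8 T and NK cell markers were 6.93 to 10.5 CPM in control and 6.49 to 11.8 CPM in KO, and of these 5 genes 1 was called: Eomes, a transcription factor, rose from 0.0991 to 1.55 CPM (edgeR adjusted p = 0.000946).

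Most enzymes of de novo synthesis were lower in RTF1-deficient cells. Of the 10 genes, 7 fell (edgeR's quasi-likelihood test, adjusted p under 0.05 over all tested genes), namely Ppat, Pfas, Paics, Adsl, Atic, Cad and Dhodh, and none rose, with negative estimates for all 10 in edgeR and in DESeq2. Gart, Impdh2 and Umps had negative log2 fold changes that did not pass the test. Among all 14268 tested genes 46.1% were called, 22.9% lower and 23.2% higher. The median log2 fold change was −0.74 over the 10 genes and 0.013 over all tested genes. In 6 of the 10 genes every KO library lay below every control library, which held for 28.0% of all tested genes. Purine enzymes fell in 5 of 7 cases (median log2 fold change −0.70) and pyrimidine enzymes in 2 of 3 (median −1.14). Together the 10 genes took 0.168% ± 0.0320 of all counts in the control group and 0.107% ± 0.0229 in the KO group (SD, n = 3). These are bulk samples, in which fewer cells of a type and less RNA per cell cannot be told apart.

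The count of 7 depended on single libraries. It was 4 without KO replicate 2 and 10 without control replicate 3. Calls over all genes, in either direction, moved the same way in these 2 fits. They were 6574 of 14268 in the main fit, 4460 of 14349 without KO replicate 2 and 7050 of 14347 without control replicate 3. With the replicate number as a block, all 10 genes were called lower, against 26.4% of all tested genes. All 10 were also called lower when both libraries numbered 3 were left out, where 6351 of 14329 genes were called in either direction. The plot of CPM by library shows control replicate 3 as the lowest control library for each of the 10 genes.

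**Figure D1:**
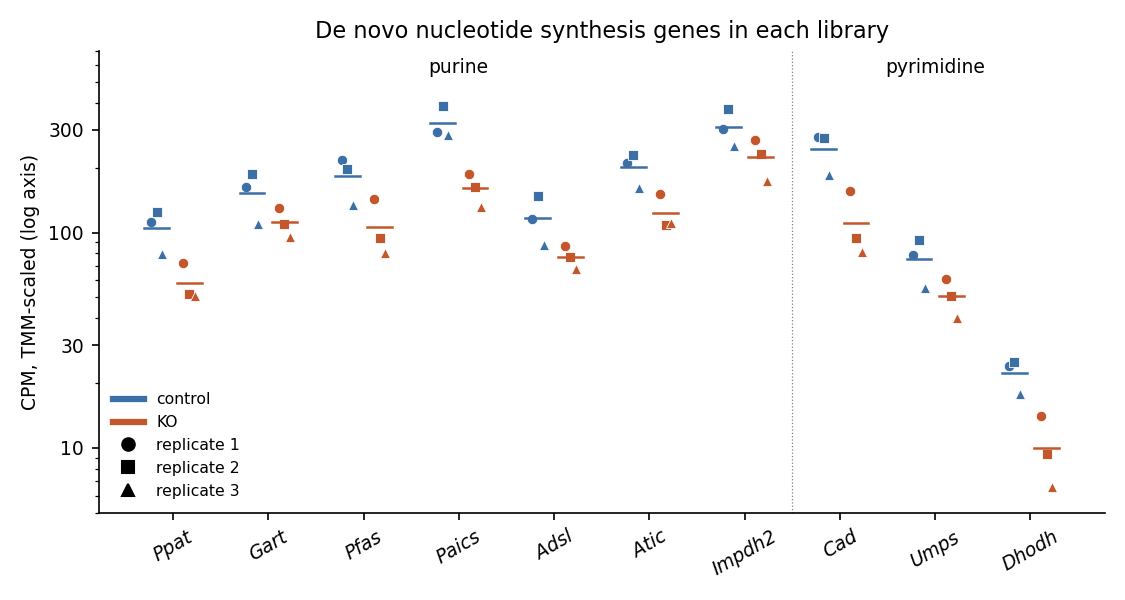
CPM (TMM-scaled, log axis) of the 10 enzyme genes in each library, control in blue and KO in orange, with the replicate number given by the symbol and the group mean by the bar. For 6 genes the KO symbols all lie below the control symbols, and control replicate 3 (triangle) is the lowest control point for all 10.

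Some of these promoters carry the sequence CACGTG, the E-box to which the growth regulator MYC binds with its partner MAX. It was searched in the 250 bases before each RefSeq start site (assembly GRCm38.p6); being its own reverse complement, it reads the same on both strands. The 3 matches are shown with their surrounding bases. Each stretch is given 5′ to 3′ on the plus strand, with the motif in capitals.

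Atic (chr1:71557126-71557155, motif beginning 7 bases before the start): gaggaggggcgggacctcggggtCACGTGg

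Impdh2 (chr9:108560314-108560343, motif beginning 110 bases before the start): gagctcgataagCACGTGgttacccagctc

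Paics (chr5:76951087-76951116, motif beginning 203 bases before the start): cgcctcggaaagCACGTGgagggacctgct

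Thus 3 of the 8 enzyme genes with an entry in the promoter set used here held the motif (37.5%). Ppat, Gart, Adsl, Cad and Umps held no match in this window. The motif occurred in 6.02% of all 32851 windows of the same length, in 9.70% of 10397 tested genes and in 9.28% of 2521 genes called lower. Pfas and Dhodh had no entry in this promoter set and were not searched. With the motif in the 250 bases, Paics and Atic fell and Impdh2 did not pass the test. With no match there, Ppat, Adsl and Cad fell and Gart and Umps did not pass. Bases outside this window were not searched, so genes without a match may hold the motif elsewhere. The Paics stretch lies inside the gene positions given for Ppat in the text. GENCODE places the starts of Impdh2 and Atic upstream of the RefSeq starts, so the Impdh2 stretch and the end of the Atic stretch lie inside the gene positions given for them in the text. A match describes the letters and is neither a binding site nor a cause.

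Ppat encodes the amidotransferase that commits PRPP to purine synthesis, and Paics a bifunctional enzyme of the later ring-building steps. The genes lie head to head on chromosome 5 (GENCODE release M21, GRCm38), Ppat at chr5:76913249-76951578 on the minus strand and Paics at chr5:76951307-76967509 on the plus strand. Their models share 272 bases of exon, 6.15% of Ppat and 8.67% of Paics, and since no strand setting is given in the sources used here, reads from the shared bases cannot be assigned to either gene with certainty. Ppat stood at 112, 125 and 79.4 CPM in control replicates 1, 2 and 3 and at 72.4, 51.8 and 50.9 CPM in KO. The groups did not overlap, and KO held 55.4% of the control mean. Ppat fell by 0.85 on the log2 scale (SE 0.198; adjusted p by edgeR = 0.00816). Paics stood at 294, 389 and 284 CPM in control and at 188, 163 and 131 CPM in KO, again without overlap. It fell from 322 ± 57.7 to 161 ± 28.3 CPM (SD, n = 3), with a log2 change of −1.0 (edgeR, SE 0.174, adjusted p = 0.00221). Both calls held whichever single library was left out.

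Gart encodes a trifunctional enzyme (chr16:91621186-91646952, minus strand) and Pfas the enzyme that introduces the second glutamine nitrogen (chr11:68985697-69008460, minus strand). Gart stood at 162, 187 and 109 CPM in control and at 130, 110 and 95.4 CPM in KO, so that control replicate 3 lay among the KO libraries. The log2 fold change was −0.45 (95% interval −0.90 to 0.0048, edgeR adjusted p = 0.0954). It was called with the replicate block (−0.43, edgeR adjusted p = 0.0188), without control replicate 3 (−0.70, edgeR adjusted p = 0.00500) and without both libraries numbered 3 (−0.54, edgeR adjusted p = 0.0116). Of the exonic bases of Gart, 19.7% are shared with the overlapping gene Gm15964. Pfas stood at 218, 198 and 134 CPM in control and at 144, 94.2 and 80.5 CPM in KO. The highest KO library exceeded the lowest control library. Pfas fell from 183 ± 43.9 to 106 ± 33.5 CPM (SD over 3 libraries; log2 change −0.79, SE 0.243; adjusted p by edgeR = 0.0271). This call was lost without control replicate 1, control replicate 2, KO replicate 2 or KO replicate 3 (edgeR adjusted p = 0.0779, 0.0768, 0.10 and 0.0866, log2 fold change −0.72, −0.74, −0.70 and −0.62).

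Adsl encodes adenylosuccinate lyase, which acts both in ring building and in the branch to AMP (chr15:80948490-80970946, plus strand), and Atic the bifunctional enzyme that closes the ring to IMP (chr1:71557150-71579631, plus strand). Adsl stood at 116, 147 and 87.3 CPM in control and at 86.4, 77.3 and 67.6 CPM in KO. The groups did not overlap, but KO replicate 1 came close to control replicate 3. Adsl fell by 0.60 on the log2 scale (SE 0.188; adjusted p by edgeR = 0.0283). Its call was lost without control replicate 1, control replicate 2, KO replicate 2 or KO replicate 3 (edgeR adjusted p = 0.0573, 0.0816, 0.0834 and 0.0959, log2 fold change −0.69, −0.41, −0.60 and −0.52). Atic stood at 211, 231 and 161 CPM in control and at 151, 109 and 111 CPM in KO, with every KO library below every control library. Atic fell from 201 ± 35.9 to 124 ± 23.9 CPM (SD over 3 libraries; log2 change −0.70, SE 0.177; adjusted p by edgeR = 0.0120). Without KO replicate 2 the log2 fold change was −0.61 and the call was lost (edgeR adjusted p = 0.0582).

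Impdh2 encodes the IMP dehydrogenase isoform induced in activated lymphocytes, which takes the rate-limiting step toward GMP (chr9:108560286-108565584, plus strand). It stood at 302, 377 and 253 CPM in control and at 269, 232 and 174 CPM in KO. KO replicate 1 exceeded control replicate 3, so the groups overlapped. The log2 fold change was −0.46 (95% interval −0.91 to −0.02, edgeR adjusted p = 0.0792). It was called with the replicate block (−0.47, edgeR adjusted p = 0.0109), without control replicate 3 (−0.65, edgeR adjusted p = 0.0198), without KO replicate 1 (−0.62, edgeR adjusted p = 0.0463) and without both libraries numbered 3 (−0.44, edgeR adjusted p = 0.0469). The level of Impdh2 is uncertain, since 39.3% of its 50-base stretches also occur in the pseudogene Impdh2-ps.

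Pyrimidine synthesis held the genes with the largest falls. Cad encodes the trifunctional protein of the opening 3 steps (chr5:31054780-31078479, plus strand). It stood at 278, 274 and 185 CPM in control and at 157, 94.8 and 81.1 CPM in KO. Every KO library lay below every control library, and KO held 45.2% of the control mean. Cad fell by 1.15 on the log2 scale (SE 0.257; adjusted p by edgeR = 0.00693). Dhodh encodes the mitochondrial dihydroorotate dehydrogenase, the enzyme of the pathway tied to the respiratory chain (chr8:109591343-109608673, minus strand). It stood at 24.0, 25.0 and 17.7 CPM in control and at 14.1, 9.40 and 6.56 CPM in KO, without overlap. Dhodh fell from 22.2 ± 3.97 to 10.03 ± 3.82 CPM (SD over 3 libraries; log2 change −1.14, edgeR adjusted p = 0.00891). The calls of Cad and Dhodh held whichever single library was left out.

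Umps encodes UMP synthase, which completes UMP in a pair of steps (chr16:33954782-33967038, minus strand). It stood at 78.4, 92.2 and 55.1 CPM in control and at 61.1, 51.0 and 39.96 CPM in KO. Here too KO replicate 1 lay above control replicate 3. The log2 fold change was −0.57 (95% interval −1.05 to −0.09, edgeR adjusted p = 0.0538). Umps was called with the replicate block (−0.56, edgeR adjusted p = 0.00451), without control replicate 3 (−0.81, edgeR adjusted p = 0.00436), without KO replicate 1 (−0.73, edgeR adjusted p = 0.0344) and without both libraries numbered 3 (−0.61, edgeR adjusted p = 0.00647). It was also called with upper-quartile factors (edgeR adjusted p = 0.0392), with no filter on low counts (edgeR adjusted p = 0.0245) and with DESeq2 (−0.60, DESeq2 adjusted p = 0.0340). Of its exonic bases, 6.11% are shared with the overlapping gene Gm15829.

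**Figure D2:**
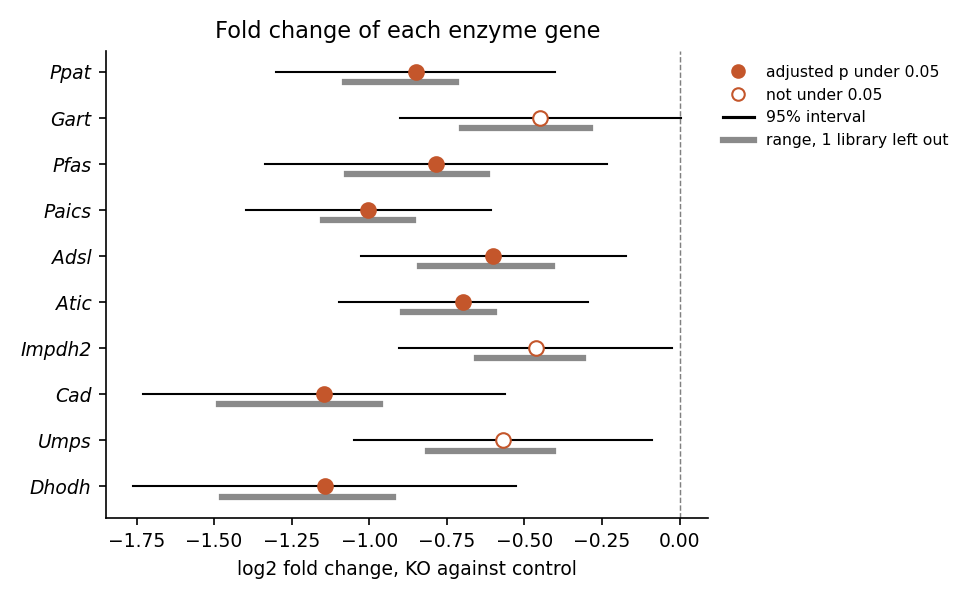
Log2 fold change of each enzyme gene, KO against control, with its 95% interval (thin line) and the range over the 6 fits that each left out 1 library (grey bar); filled points passed an edgeR adjusted p of 0.05. All 10 estimates and all grey bars lie below 0, from −1.15 for Cad to −0.45 for Gart, and only the interval of Gart reaches 0.

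The libraries differed among themselves in a like order for all these genes. KO replicate 1 was the highest KO library for each of the 10 genes, and KO replicate 3 the lowest for 9. Control replicate 2 was the highest control library for 8 genes and control replicate 1 for the other 2. Within each replicate number, KO was below control in 30 of 30 pairs of values. These pairs are not separate observations, since the genes share this order of libraries, and the share over all tested genes was not computed. The falls were larger for number 2 than for number 1 in every gene: for Cad, the log2 ratio of KO to control was −0.82, −1.53 and −1.19 for numbers 1, 2 and 3, and for Gart it was −0.32, −0.76 and −0.20.

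Levels of different genes are compared per length of exon, counting each base that lies in an exon of any GENCODE transcript of the gene. This length was 3139 bases for Paics, 3077 for Impdh2 and 7985 for Atic. It may exceed the length of the transcripts made in these cells, so the order of genes below depends on it. In control, Paics (103 ± 18.4 CPM per kilobase) and Impdh2 (101 ± 20.3) stood highest and did not differ beyond their spread. Cad (30.01 ± 6.45), Gart (29.7 ± 7.67), Atic (25.1 ± 4.50), Ppat (23.8 ± 5.27), Pfas (23.1 ± 5.53), Umps (21.6 ± 5.38) and Adsl (20.7 ± 5.34 CPM per kilobase) formed a middle range in which each gap between neighbours was smaller than the larger of their SDs. Dhodh was lowest at 3.52 ± 0.628 CPM per kilobase. In KO, Impdh2 (73.2 ± 15.5 CPM per kilobase) stood above Paics (51.2 ± 9.03), and Dhodh was again lowest at 1.59 ± 0.604 (SD, n = 3).

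The other IMP dehydrogenase, Impdh1, regarded as the housekeeping isoform, fell while Impdh2 did not pass the test. Impdh1 stood at 77.1, 77.8 and 71.1 CPM in control and at 35.7, 37.4 and 30.2 CPM in KO (log2 change −1.13, SE 0.122; adjusted p by edgeR = 0.000331). The ratio of Impdh2 to Impdh1 counts within a library was 3.91, 4.84 and 3.56 in control and 7.53, 6.20 and 5.76 in KO. Each KO ratio exceeded each control ratio, a mean log2 difference of 0.67 (two-sided exact permutation test, p = 0.1, the least that 3 against 3 libraries allow; p = 0.15 adjusted over the 3 ratios tested). The plot of this ratio shows both groups with no overlap. Of the other 2 ratios tested, Prps1 to Prps2, the isoforms of PRPP synthetase, was 2.89, 2.85 and 1.57 in control and 3.76, 4.68 and 3.26 in KO (log2 difference 0.72, exact permutation test, p = 0.1, adjusted p = 0.15). Ctps to Ctps2, the isoforms of CTP synthase, was 2.02, 1.92 and 1.31 in control and 2.26, 1.03 and 0.996 in KO, and these groups overlapped (log2 difference −0.38, exact permutation test, p = 0.4, adjusted p = 0.4).

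**Figure D3:**
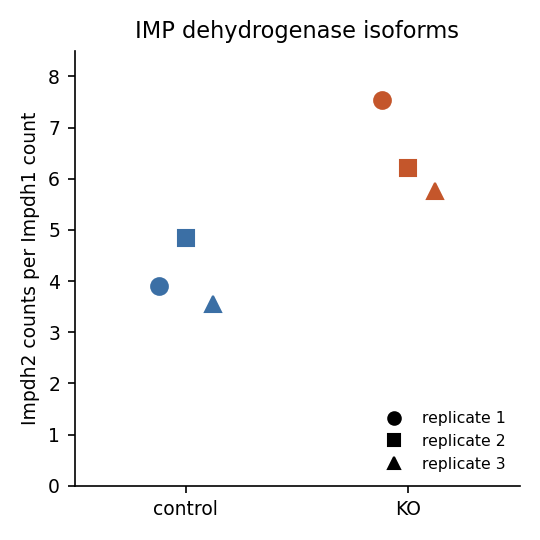
Impdh2 counts per Impdh1 count in each library (linear axis from 0), with the replicate number given by the symbol. Control libraries lie between 3.56 and 4.84 and KO libraries between 5.76 and 7.53.

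Steps next to de novo synthesis were examined through lists of 63 further genes, of which 58 were tested: 28 fell, 14 rose and 16 were not called, with a median log2 fold change of −0.36. The share that rose was near the 23.2% of all tested genes, and the share that fell was above the 22.9% of all tested genes. Without KO replicate 2 the counts were 18 and 9, and without control replicate 1 only 8 genes were called higher. Of the 4 genes of PRPP synthesis, which makes the shared ribose donor, 1 rose and 3 were not called. Prpsap1, a regulatory partner of PRPP synthetase, rose from 51.4 ± 4.76 to 76.9 ± 5.89 CPM (SD over 3 libraries; log2 change 0.58, edgeR adjusted p = 0.00457). The synthetase genes Prps1 and Prps2 had log2 fold changes of 0.41 and −0.27 (edgeR adjusted p = 0.234 and 0.130), and the partner gene Prpsap2 had −0.37 (edgeR adjusted p = 0.0608). With the replicate block Prps1 was called higher (0.44, edgeR adjusted p = 0.00859) and Prpsap2 lower (−0.37, edgeR adjusted p = 0.0416). Prps2 was called without KO replicate 1 (−0.41, edgeR adjusted p = 0.0335) and Prpsap2 without control replicate 3 (−0.49, edgeR adjusted p = 0.0267) and with upper-quartile factors (−0.39, edgeR adjusted p = 0.0417). Prpsap2 is uncertain, since 29.6% of its 50-base stretches also occur in Gm13651 or Gm4993.

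Downstream of IMP and UMP, 3 of 4 listed genes of the IMP branch fell and 1 rose, and 2 of 2 genes of CTP synthesis fell. Among all tested genes 22.9% were called lower and 23.2% higher. Impdh1, described above, is counted in the IMP branch. Gmps, which makes GMP, fell from 221 ± 16.4 to 109 ± 14.7 CPM (SD over 3 libraries; log2 change −1.03, edgeR adjusted p = 0.000606). Adss, which leads to AMP together with Adsl, fell from 198 ± 6.48 to 132 ± 9.55 CPM (log2 change −0.58, edgeR adjusted p = 0.00293). Its muscle-type relative Adssl1 rose from a low 2.30 ± 1.94 to 6.74 ± 2.39 CPM (log2 change 1.52, edgeR adjusted p = 0.0435). The call of Adssl1 was lost without control replicate 1, control replicate 2, KO replicate 2 or KO replicate 3 (1.19, 1.17, 1.2 and 1.62, edgeR adjusted p = 0.115, 0.126, 0.155 and 0.0681) and with upper-quartile factors (1.48, edgeR adjusted p = 0.0556). Both CTP synthase genes fell, Ctps with a log2 fold change of −1.16 (edgeR adjusted p = 0.00894) and Ctps2 with −0.84 (edgeR adjusted p = 0.00125).

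Among 7 genes of deoxynucleotide synthesis, 6 fell (median log2 fold change −1.09), against 22.9% of all tested genes. Rrm1, the large subunit of ribonucleotide reductase, fell from 425 ± 127 to 185 ± 64.7 CPM (SD over 3 libraries; log2 change −1.2, edgeR adjusted p = 0.00861). Dut, which removes dUTP, fell by 1.32 on the log2 scale (edgeR adjusted p = 0.00617). Tyms, thymidylate synthase, had a log2 fold change of −1.09 (edgeR adjusted p = 0.0195). The call of Tyms was lost without control replicate 1, control replicate 2, KO replicate 2 or KO replicate 3 (−1.07, −0.90, −0.95 and −0.96, edgeR adjusted p = 0.0548, 0.0739, 0.0787 and 0.0645). Rrm2b, the p53-inducible small subunit, had a log2 fold change of −0.035 (edgeR adjusted p = 0.836), positive instead when only library size was scaled for.

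Of the 10 nucleotide kinase genes 3 were lower, 3 higher and 4 not called, near the 22.9% lower and 23.2% higher of all tested genes. Ak4, a mitochondrial adenylate kinase, fell from 72.6 ± 19.0 to 9.83 ± 2.15 CPM (SD over 3 libraries; log2 change −2.88, edgeR adjusted p = 0.000124). Cmpk2, known as an interferon-induced mitochondrial kinase, rose from 1.28 ± 0.366 to 7.19 ± 4.29 CPM (log2 change 2.49, edgeR adjusted p = 0.00276). Ak1, a cytosolic adenylate kinase, rose by 1.26 on the log2 scale (edgeR adjusted p = 0.0169), but was not called without control replicate 1, control replicate 2 or KO replicate 1 (1.18, 1.14 and 0.82, edgeR adjusted p = 0.0548, 0.0572 and 0.0633). Ak6 had a log2 fold change of −0.77 (edgeR adjusted p = 0.0155), but 59.1% of its exonic bases overlap Rad17 and Taf9, and it was not called without control replicate 1, control replicate 2, KO replicate 2 or KO replicate 3 (−0.78, −0.63, −0.76 and −0.70, edgeR adjusted p = 0.0506, 0.0572, 0.0602 and 0.0543). Cmpk1, a UMP and CMP kinase gene that was not called, had a log2 fold change of −0.054 (edgeR adjusted p = 0.700), positive instead when only library size was scaled for.

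Salvage recycles bases and nucleosides in place of new synthesis, and its 14 tested genes also moved both ways, with 7 lower and 5 higher. Among all tested genes 22.9% were lower and 23.2% higher. The nucleoside kinases Tk1, Adk and Dck fell, with log2 fold changes of −1.32, −1.30 and −1.29 (edgeR adjusted p = 0.00177, 0.00264 and 0.00288). Pnp2, a purine nucleoside phosphorylase, rose from 0.922 ± 0.276 to 2.95 ± 0.406 CPM (SD over 3 libraries; log2 change 1.65, edgeR adjusted p = 0.00444), although 28.5% of its 50-base stretches also occur in Pnp or Gm49342. Aprt, which recycles adenine, had −0.36 (edgeR adjusted p = 0.148) and was called without control replicate 3 (−0.61, edgeR adjusted p = 0.00884) and without both libraries numbered 3 (−0.49, edgeR adjusted p = 0.0224). Uckl1, related to the uridine-cytidine kinases, had 0.43 (edgeR adjusted p = 0.0954). It was called with the replicate block (0.44, edgeR adjusted p = 0.0335), without control replicate 3 (0.55, edgeR adjusted p = 0.0270), without KO replicate 1 (0.56, edgeR adjusted p = 0.0490) and without both libraries numbered 3 (0.54, edgeR adjusted p = 0.0387).

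Of 13 tested breakdown genes, 4 fell and 3 rose, also near the shares of all tested genes. Xdh, which makes uric acid, rose from 2.20 ± 0.294 to 16.2 ± 4.96 CPM (SD over 3 libraries; log2 change 2.87, edgeR adjusted p = 0.000224). Nt5e, which encodes the surface 5′-nucleotidase CD73, rose from 41.2 ± 19.5 to 136 ± 66.7 CPM (log2 change 1.73, edgeR adjusted p = 0.0145), a call lost without KO replicate 2 (1.40, edgeR adjusted p = 0.0590). Upb1, of pyrimidine breakdown, rose from a low 0.977 ± 0.168 to 3.11 ± 0.696 CPM (log2 change 1.67, edgeR adjusted p = 0.00359). Dpyd and Dpys, also listed for breakdown, had 0 counts in every library. Ada, adenosine deaminase, fell from 11.1 ± 2.27 to 3.88 ± 0.694 CPM (log2 change −1.51, edgeR adjusted p = 0.00155). Samhd1, which cuts dNTPs, had 0.33 (edgeR adjusted p = 0.273), and was called with the replicate block (0.39, edgeR adjusted p = 0.0497), without control replicate 3 (0.63, edgeR adjusted p = 0.00718) and without both libraries numbered 3 (0.63, edgeR adjusted p = 0.00619). Nt5c had −0.012 (edgeR adjusted p = 0.957), positive instead when only library size was scaled for or with the replicate block.

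Of the 4 nucleoside transporter genes, 3 fell, against 22.9% of all tested genes. Slc28a2 fell from 29.6 ± 2.76 to 15.2 ± 0.694 CPM (SD over 3 libraries; log2 change −0.96, edgeR adjusted p = 0.000858), with 35.4% of its 50-base stretches also found in Gm14085. The equilibrative transporters Slc29a1 and Slc29a2 fell by 1.04 and 1.05 on the log2 scale (edgeR adjusted p = 0.0125 and 0.0169). Neither was called without KO replicate 2 (−0.99 and −0.93, edgeR adjusted p = 0.0531 and 0.0720), nor Slc29a2 without KO replicate 3 (−0.98, edgeR adjusted p = 0.0606). Slc29a3, an intracellular transporter, rose from 31.1 ± 1.19 to 49.2 ± 2.45 CPM (log2 change 0.66, edgeR adjusted p = 0.00206).

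Folate enzymes handle one-carbon units, which Gart and Atic insert into the purine ring. Of the 8 genes listed for these enzymes 7 fell (median log2 fold change −1.39), against 22.9% of all tested genes. Aldh1l2 fell from 21.1 ± 7.08 to 1.32 ± 0.466 CPM (SD over 3 libraries; log2 change −3.99, edgeR adjusted p = 0.000124), and Mthfd1l from 283 ± 25.0 to 49.96 ± 15.8 CPM (log2 change −2.50, edgeR adjusted p = 0.000136). Shmt2, which draws the unit from serine, fell by 1.79 on the log2 scale (edgeR adjusted p = 0.00140), and Mthfd2 by 1.69 (edgeR adjusted p = 0.000224). Fpgs, which retains folates in the cell, had −0.49 (edgeR adjusted p = 0.0620). It was called with the replicate block (−0.50, edgeR adjusted p = 0.0151), without control replicate 3 (−0.68, edgeR adjusted p = 0.0122), without KO replicate 1 (−0.68, edgeR adjusted p = 0.0238), without both libraries numbered 3 (−0.52, edgeR adjusted p = 0.0372) and with upper-quartile factors (−0.51, edgeR adjusted p = 0.0479).

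**Figure D4:**
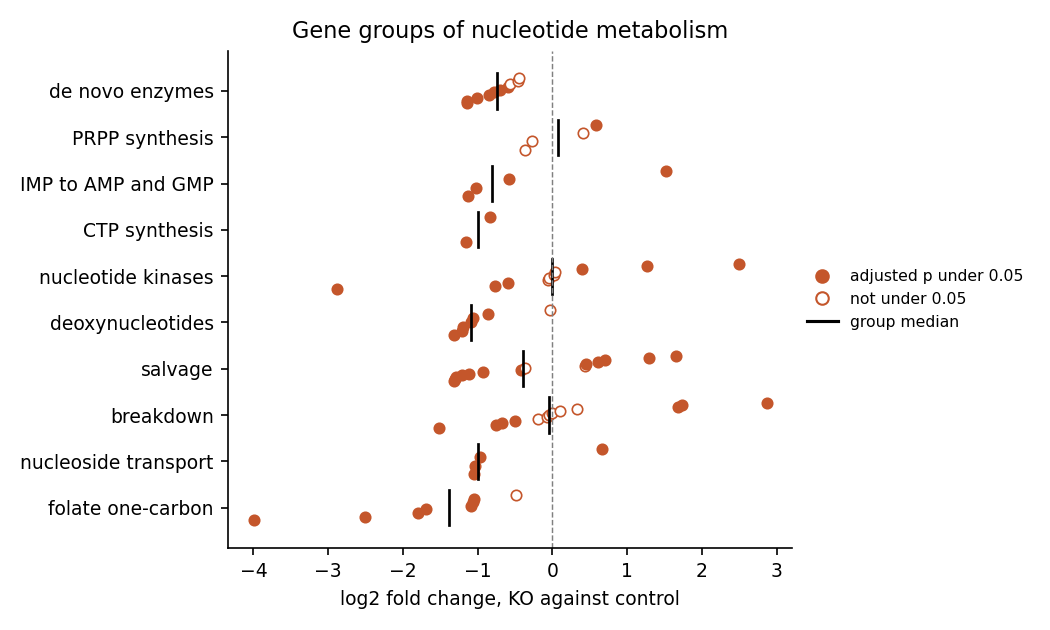
Log2 fold change of each tested gene, KO against control, in the de novo enzymes and the neighbouring lists; filled points passed an edgeR adjusted p of 0.05 and bars mark group medians. The de novo enzymes lie between −1.15 and −0.45, the folate genes reach −3.99, and kinases, salvage and breakdown spread on both sides of 0.

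Of 6 genes known from other work to act upstream of nucleotide synthesis, 4 fell and 1 rose. Among all tested genes 22.9% fell and 23.2% rose. The gene that rose was Max, which encodes the partner of MYC. It stood at 60.2 ± 0.115 CPM in control and at 74.6 ± 5.70 CPM in KO (SD over 3 libraries, log2 change 0.31, edgeR adjusted p = 0.0392). Myc, whose product activates many of the de novo enzyme genes, stood at 281, 315 and 339 CPM in control and at 192, 171 and 199 CPM in KO. No KO library reached the lowest control library. Control replicate 3, the lowest control library for the enzymes, was the highest for Myc. Myc fell by 0.73 on the log2 scale (SE 0.123; adjusted p by edgeR = 0.00193). Atf4, the transcription factor of the amino acid response and an activator of Mthfd2 and Shmt2, fell from 387 ± 73.3 to 144 ± 15.3 CPM (SD over 3 libraries; log2 change −1.43, edgeR adjusted p = 0.000401). Mtor and Rptor, of the growth-sensing kinase complex mTORC1, fell by 0.42 and 0.47 on the log2 scale (edgeR adjusted p = 0.0164 and 0.0176). Neither was called without KO replicate 2 (−0.37 and −0.41, edgeR adjusted p = 0.0780 and 0.0849) or KO replicate 3 (−0.41 and −0.44, edgeR adjusted p = 0.0538 and 0.0619), nor Rptor without control replicate 1 (−0.47, edgeR adjusted p = 0.0543). Rps6kb1, whose kinase acts on the Cad protein, had 0.15 (edgeR adjusted p = 0.279). The part of these upstream genes in the levels of the enzymes was not tested.

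Proliferation genes moved with the enzymes. All 20 listed proliferation genes fell (median log2 fold change −1.24), against 22.9% of all tested genes. Averaged as log2(CPM + 0.5), the 10 enzymes stood at 7.20, 7.37 and 6.76 in control and at 6.68, 6.29 and 6.05 in KO. The proliferation genes stood at 7.57, 7.82 and 7.09 in control and at 6.71, 6.13 and 5.88 in KO. The 6 libraries came in the same order on both measures. The mean of the enzymes was lower in KO by a log2 difference of −0.77 and that of the proliferation genes by −1.25. The enzyme mean minus the proliferation mean was −0.37, −0.45 and −0.33 in control and −0.028, 0.15 and 0.17 in KO, without overlap. The part of proliferation in the fall of the enzymes was not tested.

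**Figure D5:**
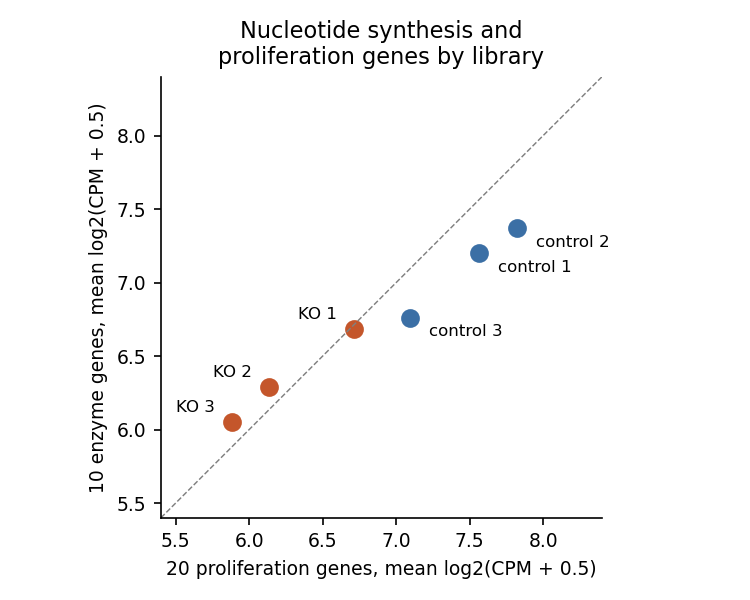
Mean log2(CPM + 0.5) of the 10 enzyme genes against that of 20 proliferation genes, 1 point per library, with the line of equal values dashed. The control libraries lie below the line, KO replicate 1 lies close to it at −0.028, and KO replicates 2 and 3 lie above it.

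Some myeloid markers were higher in KO. The summed level of 5 such genes was 2.08 to 5.04 CPM in control and 16.4 to 27.3 CPM in KO, most of it from Cd68. The 2 that were tested, Cd68 and Csf1r, were higher. Cd68 rose from a mean of 3.19 to 20.001 CPM (edgeR adjusted p = 0.000790), whereas Csf1r reached a mean of 1.18 CPM in KO. Lyz2, Itgam and Adgre1 were too low to be tested. Their means were 0.045, 0.031 and 0.047 CPM in control and 0.816, 0.022 and 0.045 CPM in KO. The part of myeloid cells in the fall of the enzymes was not tested.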

How the data were processed

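RNA sequencing of mouse Th17 cells gave 6 libraries, 3 control (WT) and 3 KO; groups and replicate numbers came from the sample titles. The authors deposited 1 table of raw read counts per gene symbol. The submitters' processing notes name the build mm10 and the tools STAR, featureCounts and DESeq2; versions, annotation and strand setting are not given in the sources used here. There were 0 rows without a gene name and 0 columns without a sample. The filter filterByExpr kept 14268 of 31017 genes. KO was compared with control by the quasi-likelihood test of edgeR 4.0.16 (R 4.3.3) with TMM factors and no covariate. Benjamini-Hochberg adjustment ran over all tested genes, and genes with an adjusted p under 0.05 were called. The SE is the absolute log2 fold change over the square root of F. The spread between replicates was a biological coefficient of variation of 0.212.

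Deviations from group means correlated between libraries with the same number at 0.270, 0.130 and 0.379, all above 0.1, so values from a fit with the number as a block stand beside results whose call it changed, while the main comparison has no block; control replicate 2 correlated with KO replicate 1 at 0.204 and the meaning of a number is not labelled. Alternatives were other scaling factors, other filters, DESeq2 1.42.0, the replicate block and leaving out libraries. Positions, exon lengths, overlaps and shared 50-base stretches came from GENCODE release M21 (GRCm38), and promoter windows from RefSeq (GRCm38.p6).

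The enzyme genes and all lists were chosen with earlier results of these data known. Named were the 10 enzymes, Rtf1, every tested gene of the PRPP, IMP-branch and CTP lists, and from each other nucleotide, folate and regulator list up to 4 called genes with the largest absolute fold change and up to 2 uncalled genes with the highest mean CPM. Values of some genes under this rule are not reported here. Marker genes come from lists of cell types.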

Additional observations from a re-analysis of the deposited data

How the results depend on the processing

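All 10 enzymes had negative log2 fold changes in each of the 14 alternatives, and their median lay between −0.96 and −0.62. The number called lower was 7 with DESeq2 size factors, library size only or a mean count of at least 10, 8 with upper-quartile factors, no low-count filter or DESeq2, and 10 with the replicate block or without both libraries numbered 3. Leaving out 1 library gave 4 to 10. In the wider lists, leaving out 1 library gave 18 to 30 genes called lower and 8 to 14 called higher. Over all genes, calls ran from 4460 without KO replicate 2 to 7628 with the replicate block. The Impdh2 to Impdh1 difference stayed between 0.55 and 0.79 when 1 library was left out. In the paired analysis with the replicate block it was 0.67 (exact permutation test, p = 0.25, the smallest that 3 pairs allow). A few log2 fold changes near 0 changed sign, and the cause was not tested. With library size as the only scaling these were Cmpk1 (0.035), Rrm2b (0.054) and Nt5c (0.079). Nt5c also changed sign with the replicate block (0.0070). Without both libraries numbered 3, Cmpk1 stood at 0.0073 and Rrm2b at 0.092. Leaving out 1 library gave −0.15 to 0.0040 for Rrm2b and −0.20 to 0.15 for Nt5c. Some low genes rest on few counts, such as 13 for Pnp2 and 19 for Adssl1 in control replicate 1, and with 3 libraries a group an exact test cannot go below 0.1.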

Other observations

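Some ratios between enzyme genes within a library, which need no scaling between libraries, were chosen after their values were seen and are given without a test. For Cad counts per Umps count the values were 3.54, 2.98 and 3.35 in the control libraries and 2.57, 1.86 and 2.03 in KO. Paics counts per Gart count were 1.81, 2.08 and 2.59 in the control libraries and 1.44, 1.48 and 1.38 in KO. In both of these ratios every KO library lay below every control library. The ratio of Ppat to Paics, the head-to-head pair, was 0.380, 0.321 and 0.280 in control and 0.385, 0.318 and 0.388 in KO, and these groups overlapped.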
